A study of Homo sapiens with 24 samples.

Results

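Ribosome biogenesis was followed through 45 genes for nucleolar, ribosomal RNA processing and subunit maturation factors. In the nucleolus the precursor of the ribosomal RNAs is transcribed, chemically modified, cut and packed into the precursors of the 40S and 60S subunits. Some of the members act later, in 40S maturation and export. The genes were listed by name and not picked by their measured levels, although earlier results of these data were known when the list was made. All 45 were found by Ensembl identifier among the 21386 genes counted. They fall into 10 groups by role and lie on 19 chromosomes. Every member passed the filter on low counts in every fit, and the lowest count of any member in any library was 351.

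RNA came from the human melanoma line A375 and the human lung cancer line A549, both arrested at the boundary of G1 and S phase by a double thymidine block. Each line gave 4 groups of 3 biological replicates, 24 libraries in all: cells carrying a doxycycline (Dox)-inducible shRNA against MCM7 (shMCM7) and parental cells without it, each with 1 μg/ml Dox for 72 hours or without Dox (noDox). All groups thus share the thymidine block, the control cells carry no shRNA vector, and the shMCM7 cells are puromycin-selected populations infected with a lentiviral vector rather than clones. MCM7 is a subunit of the helicase loaded onto replication origins.

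Ribosome assembly runs as a production line. Box C/D and box H/ACA small nucleolar ribonucleoproteins (snoRNPs) modify the RNA, the small subunit (SSU) processome folds and cuts the part that becomes 18S RNA, and separate sets of factors mature the 40S and the 60S particles, with DEAD-box RNA helicases remodelling RNA along the way. Growing cells spend much of their transcription and protein synthesis on this pathway, and the transcription factor MYC, which binds the E-box CACGTG with its partner MAX, is known for driving many of these genes.

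The shRNA targets the following 21 bases, given here because the knockdown is the treatment compared.

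MCM7 shRNA target: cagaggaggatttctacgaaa

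In GENCODE 29 (GRCh38) the target lies in MCM7 on the minus strand of chromosome 7, across an exon junction, with 3 bases at 100097834 to 100097836 and 18 bases at 100097728 to 100097745. It is present in 5 of 13 annotated MCM7 transcripts, in 3 of them inside the coding sequence.

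A promoter window was found for 37 of the 45 members in the RefSeq table of GRCh38.p14, which holds 250 bases before and 50 after each start site. NOP58, NOLC1, MPHOSPH10, RRP12, BOP1, RRP1B, RRS1 and DDX18 were not among them. The E-box CACGTG, which reads the same on both strands, stood in 16 of the 37 windows (43.2%), against 8.4% of the 21028 windows of counted genes. The motif CCGGAAG, the core bound by ETS factors, was searched on both strands and stood in 12 of the 37 (32.4%), against 12.9% of those windows. These matches describe the sequences and were not tested.

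The 4 stretches below, each from 120 bases before to 30 bases after the RefSeq start site, are printed with the E-box in capitals. UTP18 and WDR43 are the members whose RNA was most clearly higher in A375 shMCM7 cells with Dox, and UTP4 and PES1 are members for which the Dox effect was lower in shMCM7 than in parental cells. The 4 were chosen among members with an E-box in this stretch. Of the members called with Dox in A375 shMCM7 cells, the windows of UTP18, WDR43, UTP14A and NOP10 (higher) and of UTP4, BYSL and NOP2 (lower) held it. Those of NOB1 (higher) and of DDX56, TSR1 and DDX21 (lower) did not, and a link with direction was not tested. In UTP4 the E-box lies before the start site, in WDR43 and PES1 after it, and in UTP18 once on each side. The stretches lie at chr17:51260426-51260575 (plus strand), chr2:28894547-28894696 (plus), chr16:69132529-69132678 (plus) and chr22:30591881-30592030 (minus).

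UTP18: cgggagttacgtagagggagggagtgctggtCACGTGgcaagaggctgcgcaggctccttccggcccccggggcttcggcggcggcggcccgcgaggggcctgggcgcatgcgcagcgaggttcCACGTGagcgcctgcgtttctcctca

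WDR43: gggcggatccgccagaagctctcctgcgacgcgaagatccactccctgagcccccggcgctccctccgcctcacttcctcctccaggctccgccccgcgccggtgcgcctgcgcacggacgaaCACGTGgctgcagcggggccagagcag

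UTP4: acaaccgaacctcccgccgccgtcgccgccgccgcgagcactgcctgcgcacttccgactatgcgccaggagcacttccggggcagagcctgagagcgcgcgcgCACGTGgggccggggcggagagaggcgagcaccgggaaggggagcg

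PES1: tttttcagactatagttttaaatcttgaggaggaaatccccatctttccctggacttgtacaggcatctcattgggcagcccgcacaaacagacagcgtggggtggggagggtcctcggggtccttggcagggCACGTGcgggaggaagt

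The A375 libraries held 146656792 to 283721575 counts each and the A549 libraries 17911338 to 23452823, and levels are given as CPM (counts relative to the library total) scaled within each line by TMM, the normalization of edgeR. MCM7 stood at 76.4 to 77.2 CPM in A375 shMCM7 cells with Dox. Without Dox, replicates 2 and 3 had 353.4 and 358.6 CPM, whereas replicate 1 had 131.4 CPM and stands apart, and parental cells had 341.6 to 369.8 CPM. In A549 the MCM7 counts go against several labels. The libraries labelled shMCM7 Dox 3, shMCM7 noDox 2 and parental noDox 2 had 95.25, 99.74 and 88.58 CPM, and the other 9 libraries had 299.4 to 338.7 CPM. Of the 3 low libraries only shMCM7 Dox 3 goes with its label. Among the 9 are shMCM7 Dox 1 and 2, which at 299.4 and 332.5 CPM showed no loss of MCM7. The labels were kept. Of the lineage markers, SOX10 (501 to 677 CPM) and S100B (25.1 to 35.2 CPM) were present in A375, where the pigment genes MLANA and TYR were at or near 0 and PMEL was at 1.91 to 5.24 CPM. MITF did not set the lines apart, at 26.7 to 45.1 CPM in A375 and 35.7 to 51.9 CPM in A549. KRT7, KRT8 and KRT18 lay between 1630 and 2760 CPM in A549 and were lower in A375, where KRT18 still had a median of 242 CPM and KRT8 60.6 to 93.9 CPM. In A549 SOX10 and S100B were at 0 and the lung differentiation genes NKX2-1 and SFTPC were at or near 0.

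Most of these genes were strongly expressed. Per kilobase of exon, 44 of the 45 stood above the median gene of both lines, and DDX10, a DEAD-box helicase, was the exception in each. NPM1 (nucleophosmin, the abundant nucleolar scaffold protein) had the highest level, with a median of 358.3 CPM per kb in A375 and 294.6 CPM per kb in A549. NOP10, the smallest protein of the box H/ACA snoRNP, followed with 193.9 and 278.7 CPM per kb, and NCL (nucleolin) with 119.1 and 156.3 CPM per kb. The lowest levels were those of WDR12 of the PeBoW complex (7.18 and 7.20 CPM per kb), UTP15 of the t-UTP complex (6.63 and 6.44 CPM per kb) and DDX10 (3.87 and 5.48 CPM per kb).

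The order of the 45 genes was much the same in both lines (Spearman 0.851 across genes, which share their libraries and annotation and are not replicates). For 19 members all 12 A375 libraries lay above all 12 A549 libraries, for 5 (NOP10, NCL, FBL, UTP18 and PNO1) the reverse held, and 21 overlapped. The same count was not made over all genes, so no trait of the members is read from it. RRP12, a factor for 40S maturation and export, differed widely, with 27.2 to 34.1 CPM per kb in A375 and 5.53 to 9.60 CPM per kb in A549. As the lines were normalized separately and differ in depth, these levels are a description.

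**Figure D1:**
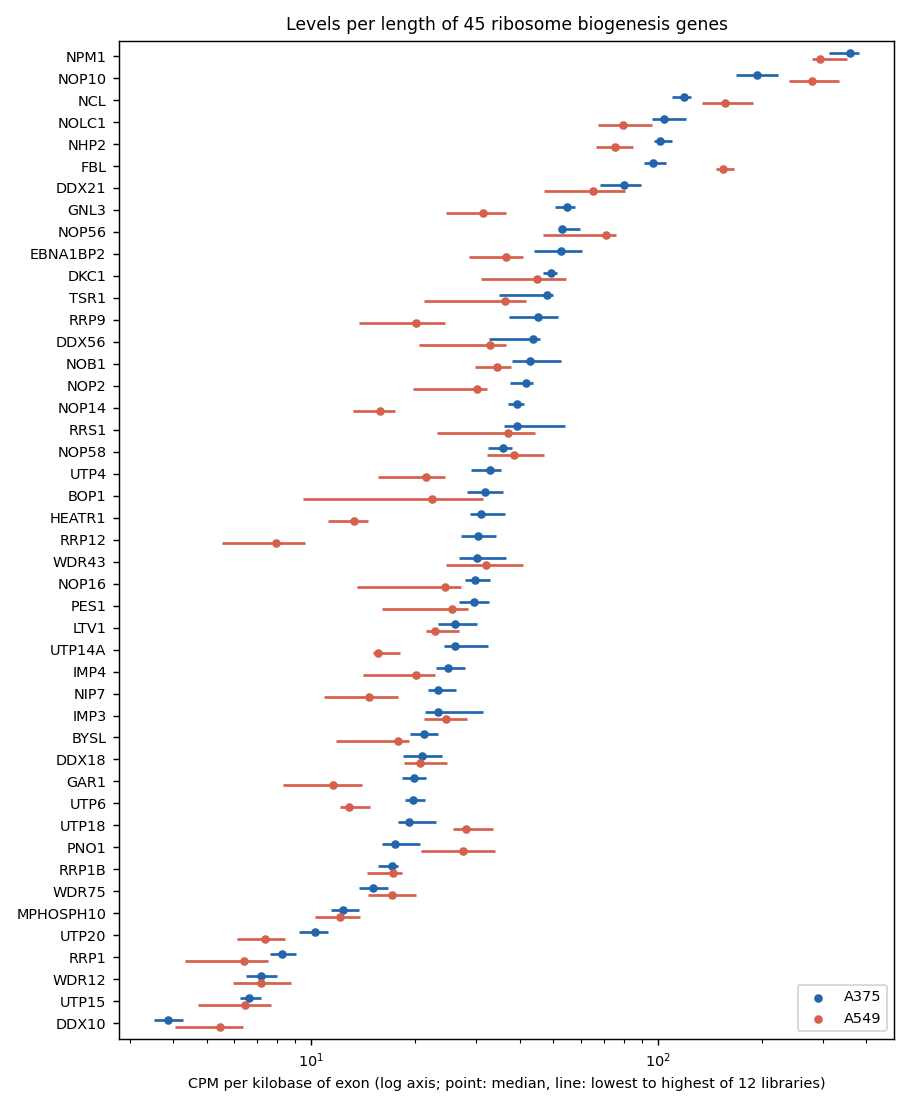
CPM per kilobase of exon (log axis) of the 45 genes in A375 (blue) and A549 (red), where the point is the median and the line runs from the lowest to the highest of 12 libraries. NPM1, NOP10 and NCL stand at the top in both lines and DDX10 at the bottom, and the A549 lines are often the longer ones.

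The first comparison asked whether depletion of MCM7 with Dox changed these genes in arrested A375 cells. The pathway did not move as a block: 5 members rose (UTP18, WDR43, NOB1, UTP14A and NOP10) and 6 fell (DDX56, TSR1, DDX21, BYSL, UTP4 and NOP2) at an FDR under 0.05, and all changes were small, between -0.36 and 0.27 on the log2 scale. Among all 16087 genes tested, 20.6% were called higher and 22.4% lower, so the members' shares lie below the background. At a fold change of at least 1.5 with p under 0.01, which 12% of all genes passed, 0 members were called by edgeR's quasi-likelihood test, and DESeq2 also called 0. In edgeR 19 members had an unadjusted p under 0.05, as did 8288 of the 16087 genes. The median log2 fold change was 0.05 over the members and 0.00448 over all genes. Counted by sign alone, called or not, 31 members were positive and 14 negative, beside 8136 and 7951 of all genes. In bulk RNA, a change in the number of cells that express a gene and a change in RNA per cell cannot be told apart, and p-values reflect the spread between the 3 biological replicates of a group.

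The largest fall was that of DDX56, a nucleolar helicase of 60S assembly. It stood at 133.0, 144.6 and 147.2 CPM in the 3 shMCM7 libraries with Dox and at 183.7, 181.1 and 181.0 CPM without Dox. Every Dox library lay below every noDox library, and the log2 fold change was -0.36 (SE 0.054, edgeR FDR = 0.000699). In parental cells DDX56 was at 185.8, 182.2 and 179.2 CPM with Dox and at 176.6, 162.7 and 160.3 CPM without, so there the Dox libraries were the higher ones (0.13, SE 0.052, edgeR FDR = 0.659). The library without Dox that had 131.4 CPM of MCM7 held the highest DDX56 level of its group.

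TSR1, a GTPase-like factor of late 40S maturation, had 193.9, 216.9 and 212.0 CPM with Dox and 244.4, 272.6 and 270.1 CPM without. The groups did not overlap, and the lowest noDox value belonged to replicate 1, the library with low MCM7 (log2 fold change -0.34, SE 0.064, edgeR FDR = 0.00261). Parental libraries had 262.2 to 277.2 CPM of TSR1 and overlapped with and without Dox. TSR1 overlaps SGSM2 and SRR on the other strand, and since the sources used here do not give the strand setting of the counting, its counts may hold reads of those genes. The same limit holds for all 23 members overlapped by an opposite-strand gene, among them WDR43, NOB1, UTP14A, NOP16 (ARL10 and HIGD2A), PES1 (TCN2), BOP1 (SCX) and IMP3 (SNX33), but not for DDX56, DDX21, BYSL, NOP2, UTP18 or NOP10.

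The other 4 that fell did so by less. DDX21, a helicase that binds ribosomal and small nucleolar RNAs, had 341.6, 377.5 and 361.3 CPM with Dox against 383.2, 437.3 and 419.9 CPM without (log2 fold change -0.20). BYSL (bystin), which binds the small subunit precursor, had 43.5, 45.8 and 43.8 CPM against 52.1, 50.3 and 48.8 CPM (-0.19). NOP2, the cytosine methyltransferase of 28S RNA, had 176.2, 184.4 and 184.2 CPM against 204.0, 204.2 and 198.2 CPM (-0.16). UTP4 of the t-UTP complex, which joins the nascent transcript early, had 164.7, 182.8 and 169.1 CPM against 191.0, 194.6 and 191.6 CPM (-0.16). In each of the 4 genes all Dox libraries lay below all noDox libraries, and the edgeR FDR ran from 0.0186 for BYSL to 0.0362 for UTP4. Parental libraries, with and without Dox, lay above the shMCM7 Dox libraries for DDX21 (384.2 to 448.8 CPM) and NOP2 (186.0 to 205.6 CPM). They overlapped the shMCM7 Dox libraries for BYSL (44.3 to 51.9 CPM) and UTP4 (167.3 to 201.2 CPM). UTP4 overlaps CHTF8 on the other strand.

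Of those that rose, UTP18 of the UtpB complex had 62.48, 60.25 and 61.11 CPM with Dox and 52.85, 49.86 and 50.15 CPM without. The groups were well apart, and the log2 fold change was 0.27 (SE 0.051, edgeR FDR = 0.00269). WDR43, a t-UTP protein like UTP4, had 147.4, 151.2 and 141.8 CPM against 125.6, 121.5 and 116.7 CPM (0.27, SE 0.052, edgeR FDR = 0.00254). Thus WDR43 and UTP4, proteins of the same early complex, moved in opposite directions, while its other members UTP15, HEATR1 and WDR75 did not pass the test. NOB1, the endonuclease that makes the final cut of 18S RNA, had 108.4, 103.9 and 111.7 CPM with Dox and 95.3, 93.5 and 90.2 CPM without (0.22, SE 0.051, edgeR FDR = 0.00804).

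UTP14A, a cofactor of an SSU processome helicase, had 115.0, 132.9 and 122.9 CPM with Dox and 111.2, 104.5 and 103.3 CPM without (log2 fold change 0.22, edgeR FDR = 0.0212). NOP10 had 119.2, 123.1 and 116.2 CPM against 108.1, 108.6 and 106.7 CPM (0.15, edgeR FDR = 0.0315). In both genes the groups did not overlap. RRS1, which brings the 5S RNA particle to the 60S precursor, had a log2 fold change of 0.24 that did not pass the test (SE 0.104, edgeR FDR = 0.0864). Its value rests on 1 library, with 92.1, 67.15 and 73.3 CPM with Dox and 69.4, 64.5 and 62.5 CPM without, and without Dox replicate 1 it was 0.10.

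By role, the box C/D snoRNP (NOP56, NOP58 and the methyltransferase FBL) and the scaffold proteins (NCL, NPM1, NOLC1 and GNL3) had no member called, as did the PeBoW complex of 60S assembly (PES1, BOP1 and WDR12). Of 4 box H/ACA members 1 rose, as did 1 of 2 UtpB members and 1 of 7 other SSU processome factors. Of 6 factors for 40S maturation 1 rose and 2 fell, of 4 helicases 2 fell, and of 7 other 60S assembly factors 1 fell. NPM1 had 1461, 1433 and 1407 CPM with Dox and 1294, 1321 and 1296 CPM without, which did not pass the test (0.14, edgeR FDR = 0.0559).

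DDX56, TSR1, UTP18, WDR43 and NOB1 kept their calls with any 1 of the 6 libraries left out. BYSL lost its call in 3 of these 6 fits, DDX21, UTP14A and NOP10 each in 4, and NOP2 in 5. The counts are less firm. The 5 that rose became 8 without shMCM7 Dox replicate 1 and 3 without shMCM7 noDox replicate 2 or 3. The 6 that fell became 3 without Dox replicate 1, noDox replicate 1 or noDox replicate 3, and 2 without Dox replicate 3 or noDox replicate 2. Fewer of all genes were called in these fits as well. From 3309 higher and 3599 lower they went to 2298 and 2621 without noDox replicate 2, and to 2720 and 2824 without Dox replicate 3. The number of members that rose was 8 by DESeq2 and 10 with the spread shared by all 12 A375 libraries, beside 3446 and 3601 of all genes.

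**Figure D2:**
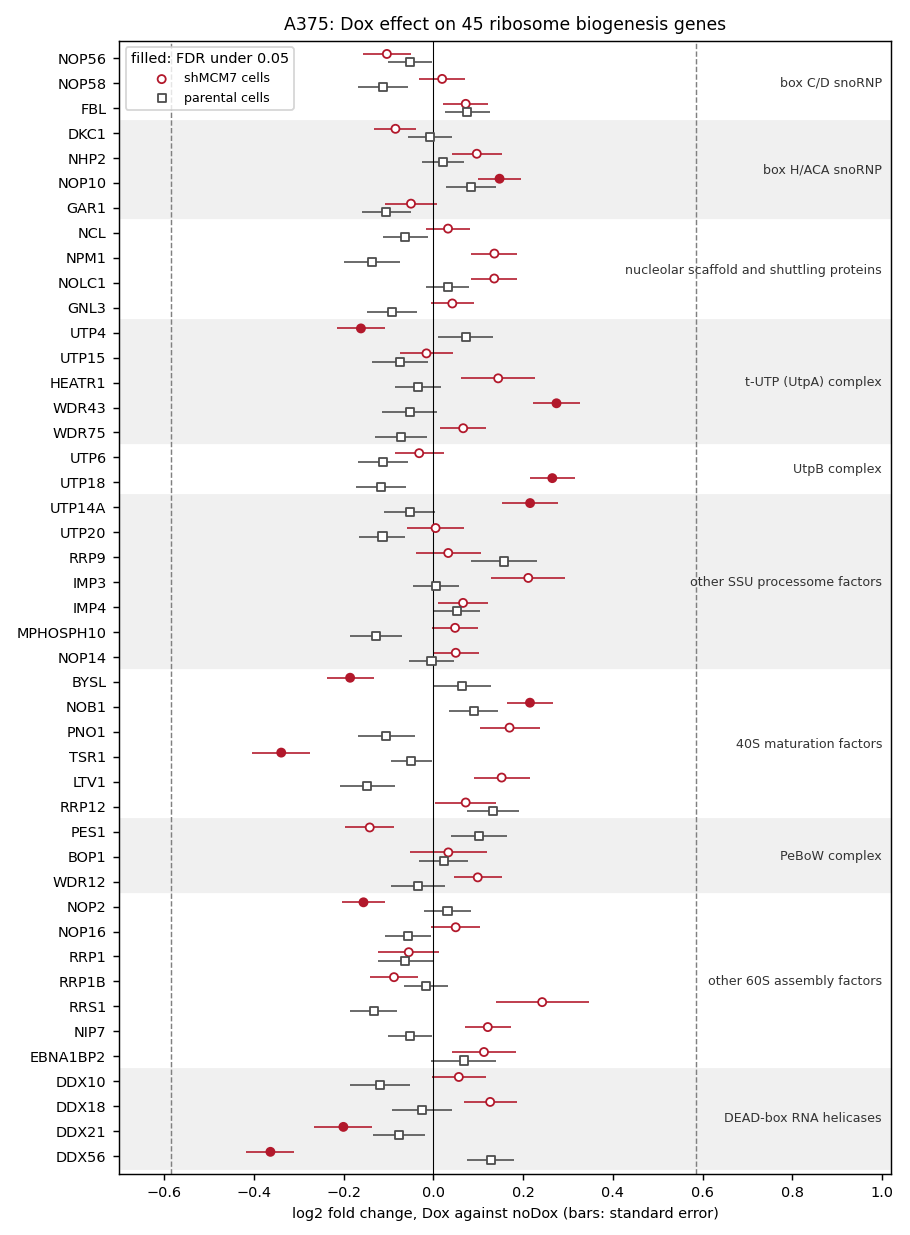
Log2 fold change with Dox against noDox for the 45 genes in A375 shMCM7 cells (red circles) and parental cells (grey squares), grouped by role, with standard errors from edgeR, filled where the FDR is under 0.05 and with dashed lines at a 1.5-fold change. Among shMCM7 values 5 filled points lie to the right and 6 to the left, none beyond the dashed lines, and no parental point is filled.

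Parental A375 cells showed what Dox did without the shRNA. Here 0 of the 45 members passed an FDR under 0.05 in edgeR's quasi-likelihood test in either direction, and DESeq2 called 0 members as well. In edgeR 7 members and 1121 of all 15993 genes had an unadjusted p under 0.05. In the main edgeR fit the background was 0% in both directions and 0% at the 1.5-fold threshold. Over all genes DESeq2 called 33 higher and 9 lower, and an edgeR fit blocked on replicate number called 44 and 13, with 0 members in either. Members' log2 fold changes ran from -0.15 for LTV1 (a factor of 40S export) to 0.16 for RRP9 (a U3 snoRNP protein), with a median of -0.05. By sign alone 16 members were positive and 29 negative, beside 7941 and 8052 of all genes.

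The Dox effect in shMCM7 cells was then tested against that in parental cells, in 1 fit over all 12 A375 libraries. It was higher in shMCM7 cells for 7 members (UTP18, WDR43, LTV1, NPM1, UTP14A, RRS1 and PNO1) and lower for 6 (DDX56, TSR1, BYSL, PES1, UTP4 and NOP2), against 13.5% and 16.5% of all 16334 genes tested. At the 1.5-fold threshold, which 10.5% of genes passed, edgeR called 0 members, and DESeq2 called 0. In edgeR 15 members and 6783 of all genes had an unadjusted p under 0.05. By sign alone 32 members were positive and 13 negative, beside 8085 and 8249 of all genes. The difference was -0.49 for DDX56 (SE 0.072, edgeR FDR = 0.000245) and 0.38 for UTP18 (SE 0.069, edgeR FDR = 0.00122). For NPM1 and LTV1 most parental values were lower with Dox than without. Parental NPM1 was 1393, 1228 and 1193 CPM with Dox and 1390, 1439 and 1353 CPM without. DDX56, TSR1, UTP18 and WDR43 kept their calls with any 1 of the 12 libraries left out. The number higher dropped to 2 without parental Dox replicate 3, to 3 without parental noDox replicate 2, and to 4 without shMCM7 noDox replicate 2 or 3, parental Dox replicate 2 or parental noDox replicate 1. The number lower dropped to 2 without shMCM7 Dox replicate 1 or 3, shMCM7 noDox replicate 1 or 2, parental Dox replicate 1 or 2 or parental noDox replicate 2 or 3, and to 3 without shMCM7 noDox replicate 3. Over all genes, 2204 higher and 2691 lower became 1631 to 2270 and 2118 to 2639 with 1 library left out.

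The other A375 comparisons share libraries with the first and are given beside it. Between shMCM7 and parental cells, both with Dox, 16 members were higher and 3 lower (DDX56, TSR1 and DDX21), against 23.2% and 24.8% of 16086 genes. No member reached the 1.5-fold threshold in edgeR (0 called, and 0 by DESeq2), which 16% of genes passed. In edgeR 24 members and 8831 of all genes had an unadjusted p under 0.05. By sign alone 35 members were positive and 10 negative, beside 8116 and 7970 of all genes. The 16 include UTP18 (0.30), WDR43 (0.32), NOB1 (0.27), UTP14A (0.26) and NOP10 (0.19), and also PNO1, the partner of NOB1 (0.30), RRS1 (0.29) and IMP3 (0.28), a U3 snoRNP protein. The 16 became 7 without parental Dox replicate 2 or 3, while the genes called higher over all genes went from 3733 to 2823 and 3267.

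Between shMCM7 and parental cells without Dox, 0 members were called by edgeR, against 1.9% of 16093 genes higher, 1.07% lower and 1.65% at the 1.5-fold threshold. DESeq2 also called 0 members. In edgeR 6 members and 2612 of all genes had an unadjusted p under 0.05. In this comparison same-numbered libraries deviated together, and a fit blocked on that number put 6 members higher and 1 lower, against 8.4% and 7.62% of all genes in that fit. The largest of these were RRP9 (0.21, SE 0.038, edgeR FDR = 0.00143) and EBNA1BP2, a 60S assembly factor (0.17, SE 0.036, edgeR FDR = 0.00398). DDX56 was among the 6 (0.13), so that without Dox it was the higher in shMCM7 cells, while UTP20 of the SSU processome was lower (-0.12).

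Summed over the 45 genes, the level was 8151, 8414 and 8246 CPM in shMCM7 cells with Dox, 8145, 8118 and 7969 CPM without, 8189, 7791 and 7598 CPM in parental cells with Dox and 8184, 8123 and 7775 CPM without. The shMCM7 libraries with and without Dox lay side by side with no overlap but a gap of few CPM, and both overlapped the parental range, so the sum did not set the groups apart.

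Other genes of the pathway were counted by the same test in A375 shMCM7 cells. Of 89 further ribosome biogenesis factors 12 rose and 14 fell (median -0.01), of 16 genes for RNA polymerase I, which transcribes the precursor, 3 rose and 4 fell, and of 14 exosome genes, whose products trim it, 2 rose and 1 fell. Among these lists 1 gene passed the 1.5-fold threshold. TSR2, which escorts a small subunit protein, had 16.1, 17.4 and 16.3 CPM with Dox and 28.0, 30.3 and 31.0 CPM without (-0.85, SE 0.065, edgeR FDR = 4.62e-05). MYC itself rose from 15.6, 14.9 and 13.1 CPM to 25.3, 20.4 and 21.8 CPM (0.63, SE 0.095, edgeR FDR = 0.00077), and was the 1 gene of 10 tested in its network to pass that threshold. Of 6 genes around the 5S particle and p53, CDKN1A fell beyond it (-0.64), from 1088, 1169 and 1184 CPM to 746.5, 726.8 and 736.6 CPM. Of 20 genes expressed in G2 and M phase 16 fell, and their sum was 1650 to 1820 CPM with Dox and 2190 to 2300 CPM without, and the part of this in the members' changes was not tested.

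**Figure D3:**
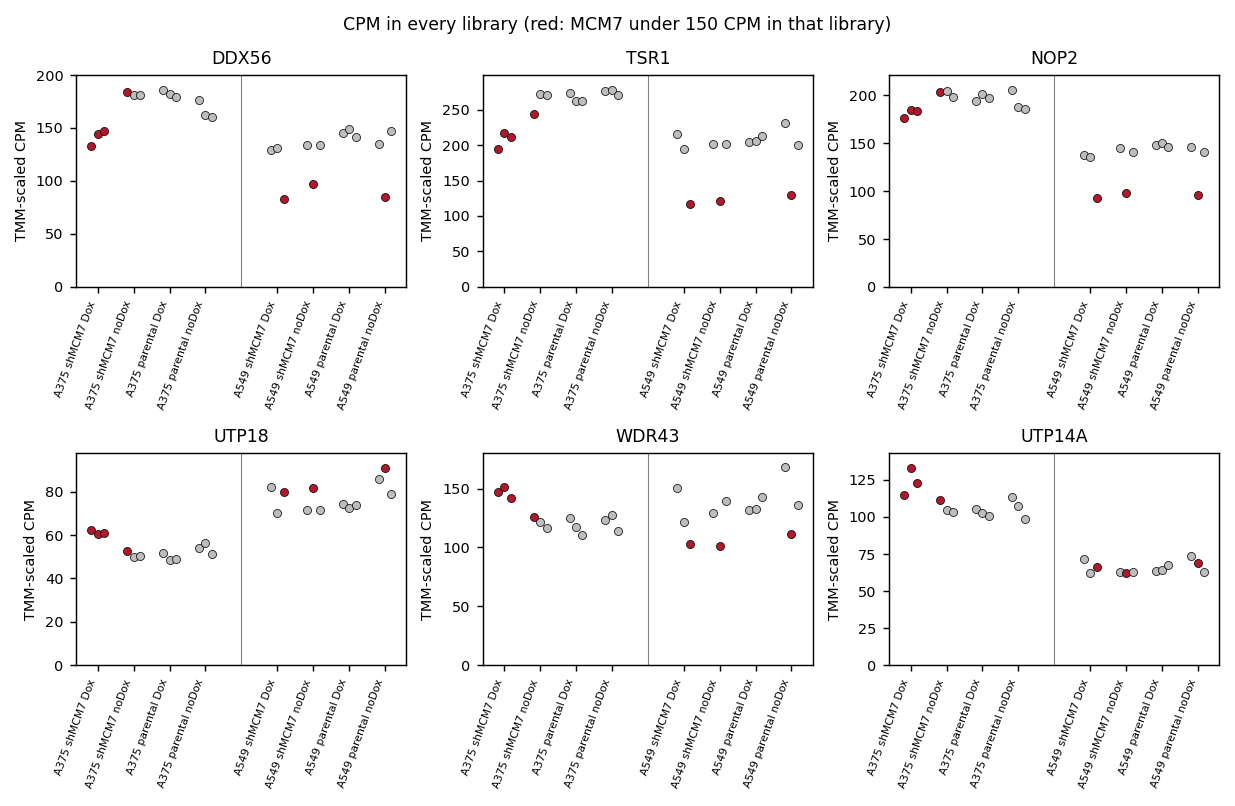
TMM-scaled CPM of DDX56, TSR1, NOP2, UTP18, WDR43 and UTP14A in each of the 24 libraries by labelled group (3 points a group, axes from 0), red where MCM7 was under 150 CPM. In A375 the 3 shMCM7 Dox libraries are the lowest for DDX56 and TSR1 and the highest for UTP18 and WDR43. In A549 the 3 red libraries carry different labels and are the lowest for DDX56, TSR1, NOP2 and WDR43, but not for UTP18 and UTP14A.

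In A549 the comparisons by label gave 0 members called. Between libraries labelled shMCM7 Dox and noDox, edgeR called 0 members at any fold and DESeq2 called 0. In edgeR 0 members and 61 of all 13550 genes had an unadjusted p under 0.05. Members' log2 fold changes ran from -0.24 (BOP1) to 0.14. Between libraries labelled parental with and without Dox edgeR called 0 members and DESeq2 called 0. In edgeR 1 member (UTP18, -0.20, edgeR FDR = 0.506) and 1137 of all 13494 genes had an unadjusted p under 0.05. The members' log2 fold changes ran up to 0.56 (BOP1). In the main edgeR fit the background was 0% in each direction and at the fold threshold in both comparisons. DESeq2 called 14 of all genes higher and 0 lower between the parental labels. The labelled groups each mix libraries with MCM7 under 150 and over 250 CPM, except parental with Dox, so these counts carry that limit.

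The A549 libraries are therefore also described by their MCM7 level, under 150 CPM in 3 and over 250 CPM in 9. MCM7 CPM is a measured value and not a label, so no condition is inferred, no test was made, and all that is counted is whether the 3 values of a gene lay outside the range of the other 9. For 31 of the 45 members (68.9%) all 3 lay below all 9, for 0 they lay above, and 14 overlapped. Among all 13785 genes kept by the filter, 19.2% lay below and 19.8% above. The difference between A375 and A549 was not tested.

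The widest gap was that of NOP16, a nucleolar factor of 60S assembly that overlaps ARL10 and HIGD2A on the other strand. In the order shMCM7 Dox 3, shMCM7 noDox 2 and parental noDox 2 the 3 libraries had 41.95, 43.64 and 38.85 CPM, and the other 9 ran from 66.6 over a median of 71.85 to 77.7 CPM. TSR1 had 117.1, 120.6 and 129.3 CPM against 194.5, 204.3 and 230.8 CPM as the lowest, median and highest of the 9, so the highest of the 3 was 66.5% of the lowest of the 9. NOP2 had 92.35, 98.51 and 95.7 CPM against 135.8, 145.6 and 150.6 CPM. In these 3 genes the low libraries are clearly set apart, and both NOP2 and TSR1 had fallen in A375.

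DDX56 had 83.4, 97.0 and 84.7 CPM against 129.6, 134.5 and 148.6 CPM in the 9 others (lowest, median and highest). DKC1 (dyskerin, the pseudouridine synthase of the H/ACA snoRNP) had 130.8, 130.3 and 134.0 CPM against 180.3, 193.4 and 229.0 CPM. NOP56 of the box C/D snoRNP had 252.5, 282.9 and 258.4 CPM against 375.9, 387.5 and 408.8 CPM. Both snoRNP genes did not pass the test in A375, where the log2 fold change was -0.08 for DKC1 and -0.10 for NOP56.

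BYSL had 27.82, 29.35 and 26.52 CPM in the 3 libraries against 38.77, 42.06 and 43.25 CPM in the 9, and PES1 had 80.3, 80.0 and 73.3 CPM against 105.9, 120.9 and 129.7 CPM. BOP1, the partner of PES1, reached a far lower value in parental noDox 2 than in the other two, with 55.26, 59.06 and 35.24 CPM against 65.36, 101.3 and 116.8 CPM, and its 9 libraries were also widely spread. At the edge of the count, RRP1 missed an overlap by little (22.85 CPM as the highest of 3, 22.99 CPM as the lowest of 9), and WDR12 overlapped by little (60.35 CPM and 60.33 CPM).

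By role, all 5 t-UTP proteins and all 7 of the other 60S assembly factors lay below, as did 5 of 7 other SSU processome factors, 3 of 4 scaffold proteins, 3 of 4 helicases, 3 of 6 for 40S maturation, 2 of 4 of the H/ACA snoRNP, 2 of 3 of PeBoW and 1 of 3 of the box C/D snoRNP. Neither UtpB member did. UTP18 had 79.8, 81.8 and 91.1 CPM against 70.05, 73.99 and 85.67 CPM, and thus overlapped with its highest value in a library with low MCM7. NPM1, with 1095, 1159 and 1144 CPM against 1071, 1111 and 1346 CPM, and FBL, with 325.7, 327.3 and 347.9 CPM against 319.4, 337.6 and 360.8 CPM, lay within the range of the others.

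The 6 members that fell in A375 shMCM7 cells with Dox (DDX56, TSR1, DDX21, BYSL, UTP4 and NOP2) were all among the 31 (100% of the 6 and 19.4% of the 31), where 68.9% of all members lay. Over all genes that fell in A375 and were kept in A549, 43.3% lay below, and over those that rose 3.28%. Of the 5 that rose, 1 (WDR43) was among the 31, with 102.5, 101.5 and 111.1 CPM against 121.2 to 168.4 CPM, so its values stood low in A549 and high in A375. The other 4 (UTP18, NOB1, UTP14A and NOP10) overlapped in A549. The E-box stood in 9 of the 25 promoter windows found for the 31 and in 7 of the 12 windows of the other members.

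The other lists of the pathway differed in their shares in A549. Of 88 further biogenesis factors 58 lay below and 0 above, of 16 RNA polymerase I genes 9 and 0, and of 14 exosome genes 3 and 0, which at 21.4% below is near the share over all genes. TSR2 had 31.4, 31.5 and 35.3 CPM in the 3 libraries against at least 54.8 CPM in the others. MYC did not stand apart (111.0 to 116.4 CPM against 92.6 to 114.4 CPM), and CDKN1A lay below (241.9 to 265.7 CPM against 406.3 to 531.1 CPM). Of the 20 G2 and M phase genes 9 lay below, and their sum was 2470 to 2620 CPM in the 3 libraries and 2670 to 3080 CPM in the others, and the part of this in the members' values was not tested.

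Summed over the 45 genes, the 3 libraries had 5900, 6131 and 6157 CPM and the others 6899 to 8098 CPM. The highest sum was that of parental noDox 1, which held the highest value of the 9 for 30 of the 45 members. Without that library, an alternative chosen after seeing the data, the count below was again 31, and with each of the 3 left out in turn it was 31 to 34. Leaving out a library can only keep or raise this count, so these values are no check on the 31. The share below over all genes also rose, from 19.2% to between 20.3% and 22.7%.

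**Figure D4:**
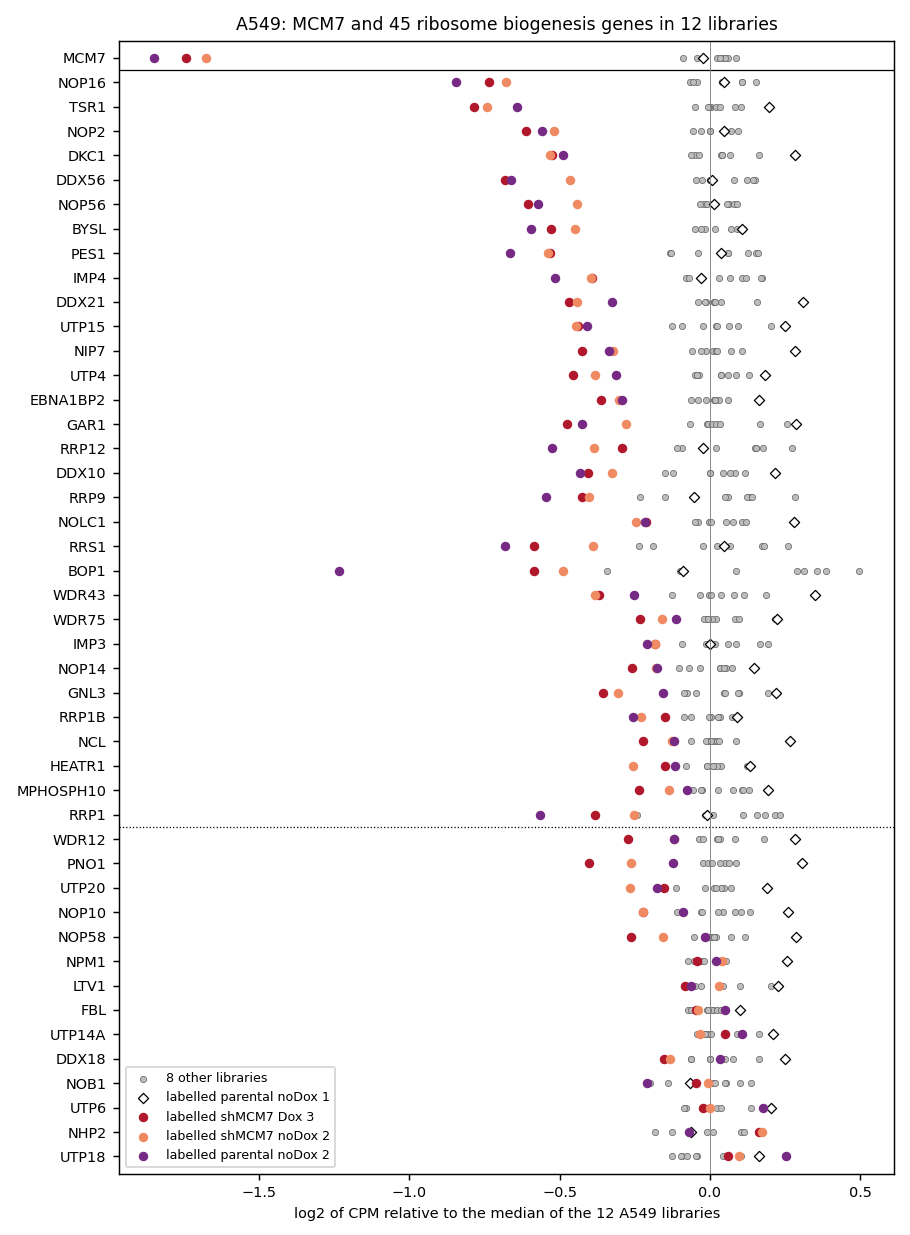
Log2 of CPM relative to the median of the 12 A549 libraries for MCM7 (top) and the 45 genes, ordered by the gap between the 3 libraries with MCM7 under 150 CPM (coloured by label) and the 9 others (grey, with parental noDox 1 as open diamonds). Above the dotted line, for 31 genes, all coloured points lie left of all others, and below it, for 14 genes, they overlap.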

How the data were processed

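RNA of 24 libraries was sequenced on a HiSeq instrument. The values are raw counts per Ensembl gene deposited by the authors, whose processing notes name bcl2fastq 2.19, Trimmomatic, STAR 2.7.1, featureCounts, edgeR and GRCh38.p10. The annotation release and strand setting are not given in the sources used here. Symbols came from GENCODE 29. Counts were analysed in R 4.3.3 with edgeR 4.0.16 (TMM, filterByExpr, glmQLFit, glmQLFTest, prior count 0.125), fitted to all genes of each comparison, with Benjamini-Hochberg adjustment over all genes tested. A gene was called at an FDR under 0.05, and again with a fold of at least 1.5 and p under 0.01. The standard error was derived from the quasi-likelihood F statistic. DESeq2 1.42.0, other filters and scalings, a replicate block and leaving out each library were alternatives. The main edgeR fit was also run on simulated data for A375 shMCM7 Dox against noDox, the difference of Dox effects and A549 shMCM7 Dox against noDox. The outcome is not given here. The simulated spread came from the parental Dox libraries of the line. In A549 these agreed far more closely than the shMCM7 libraries (chi-square per degree of freedom 1.95 to 3.48 against 9.59 to 66.7). The simulation thus did not match the spread of the A549 libraries compared. The other comparisons and the alternatives were not simulated. Noncoding host genes of snoRNAs, also listed, were not analysed here.

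The members and lists were chosen with earlier results of these data known. Members were named with values by the rules that follow, and the values are given by library, by range or as a log2 fold change. They were called in A375 shMCM7 cells (at most 10 by p) or were among the 4 largest changes each way there. Or they were called for the difference of Dox effects (at most 6 by p), or were among the 8 widest gaps in A549. Others shown were chosen after their values were seen. In the comparison of shMCM7 with parental A375 cells without Dox, libraries of the same number departed together from their groups, with correlations of 0.318, 0.212 and 0.341. The numbers were taken as pairs in the replicate block, which was an alternative, and the main fit had no block. Total counts ran from 146656792 to 283721575 for A375 libraries and from 17911338 to 23452823 for A549 libraries. No replicate pair agreed within sampling noise (chi-square per degree of freedom 1.95 to 108).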

Additional observations from a re-analysis of the deposited data

Results flagged for a closer look

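For 13 members the effect of Dox differed between shMCM7 and parental A375 cells by a test of the difference itself, over 3 libraries in each of the 4 groups. On the log2 scale the difference was -0.49 (SE 0.072) for DDX56, -0.29 (SE 0.077) for TSR1, -0.25 (SE 0.084) for BYSL, -0.25 (SE 0.086) for PES1, -0.24 (SE 0.082) for UTP4 and -0.19 (SE 0.067) for NOP2, all lower in shMCM7 cells. It was 0.38 (SE 0.069) for UTP18, 0.37 (SE 0.126) for RRS1, 0.33 (SE 0.081) for WDR43, 0.30 (SE 0.087) for LTV1, 0.27 (SE 0.093) for PNO1, 0.27 (SE 0.080) for NPM1 and 0.27 (SE 0.087) for UTP14A, all higher in shMCM7 cells. The FDR of edgeR ran from 0.000245 for DDX56 to 0.046 for NOP2. As 13.5% and 16.5% of all genes differed higher and lower by the same test, these 13 are not set apart from the rest of the genes.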

How the results depend on the processing

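In A375 shMCM7 cells with Dox against noDox, the 5 members higher became 9 with a replicate block, 10 with the spread shared by all 12 libraries and 8 by DESeq2, and 3 to 8 with 1 library left out. The 6 lower became 2 to 6 with 1 library left out. Between shMCM7 and parental cells without Dox, the replicate block gave 6 higher and 1 lower in place of 0 and 0, while calls over all 16093 genes went from 306 and 172 to 1352 and 1226. With Dox, the 16 higher became 7 to 15 with 1 library left out, and the 3 lower became 5 with the shared spread and 2 to 4 with 1 library left out. For the difference of Dox effects the 7 higher became 2 to 8 and the 6 lower 2 to 6 with 1 library left out, and 3 lower without a filter on low counts. Calls over all genes moved in the same fits as well, and the cause of these moves was not tested. The replicate block changed no other count of members by more than 1.5 times. In the other A375 comparisons deviations of same-numbered libraries correlated less. The correlations were 0.256, 0.0881 and 0.235 for shMCM7 Dox against noDox (mean 0.193). The mean was 0.185 for parental Dox against noDox and 0.058 for shMCM7 against parental with Dox. Whether the numbers mark pairs there is not known. Members called at 1.5-fold stayed at 0 in all alternatives run, as did the A549 calls by label. Over 17 single-gene results, 207 of 234 alternative values kept direction and side of the threshold, 24 no longer passed it, 3 (RRS1) newly passed it and 0 reversed. In A549, 31 to 35 members lay below over all alternatives, of which those that left out a library could only keep or raise the count.

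A549 libraries were far shallower than A375 libraries, and the part of depth in their wider spread was not tested. Members' changes in A375 were under 1.5-fold, and many calls depended on 1 library.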
